A study of Mus musculus with 12 samples.

Results

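The genes described here are 10 core parts of the circadian clock: Per1, Per2, Per3, Cry1, Cry2, Arntl, Dbp, Nr1d1, Nr1d2 and Ciart. They were chosen by name from knowledge of the pathway, and all 10 were found among the 55416 genes counted and among the 16637 with enough reads to be tested. The clock is a feedback loop that runs in nearly every cell of the body. Arntl protein (also called BMAL1) pairs with CLOCK and switches on the Per, Cry, Nr1d, Dbp and Ciart genes. PER and CRY proteins then shut the pair off, while the NR1D proteins repress Arntl, so that across a day Arntl transcript peaks at about the time when its targets are low. Sensory ganglia carry this clock too, and a tissue taken at one moment gives a single point of that cycle.

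The RNA came from trigeminal ganglia, paired clusters of nerve cells that carry sensation from the face, of 12 adult C57Bl6 mice dissected 1 month after injection. The series asks what loss of Prdm12, a transcriptional regulator of pain-sensing neurons, does in the adult ganglion. The 6 inducible knockouts (iKO) carried Rosa26 CreERT2 and 2 floxed Prdm12 alleles and received tamoxifen. Of the 6 controls, replicate 1 had CreERT2 and 1 floxed allele, replicates 2 and 3 had no Cre and 1 floxed allele, replicate 4 had CreERT2 and 0 floxed alleles, and these 4 also received tamoxifen. Controls 5 and 6 had the full iKO genotype and received corn oil. The Rosa26 locus is active in nearly all cells, so recombination is not limited to neurons. Of the iKO animals 3 were female and 3 male, and of the controls 2 were female and 4 male. All animals of replicates 5 and 6 were male. Neither the hour of dissection nor the lighting schedule is given in the labels.

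Read totals ran from 13207526 to 24178970 per library, and a count of 0 allows up to 0.124 to 0.227 CPM (a gene's reads relative to all reads counted in its library), taking 3 counts as the limit. The targeted gene Prdm12 was at 13.2 to 19.1 CPM in the iKO libraries and at 56.8 to 133 CPM in the controls. The 16 sensory neuron markers, all of them tested, summed to 17070 to 21310 CPM, so the labelled tissue showed its defining cells in every library. Marker sums of neighbouring tissues varied. Brain and central glia markers were highest in control 6 (2602 CPM, against 511.9 to 1572 CPM in the others). Skeletal muscle markers were highest in iKO 5 (1094 CPM) and pituitary markers in iKO 3 (2805 CPM). In bulk tissue, fewer cells of a type and less RNA per cell cannot be told apart.

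Promoters of these genes carry short sequences through which the loop is wired. The E-box CACGTG is bound by the CLOCK and BMAL1 pair, the D-box TTATGNAA by DBP and its relatives, the longer RRE (Rev-erb and ROR response element) by the NR1D and ROR receptors, and the CRE TGACGTCA by CREB, which couples Per1 to signals from outside the cell. RefSeq promoter windows of build GRCm38.p6, running from 250 bases before to 50 bases after an annotated start, were matched for 9 of the 10 genes, all but Per2, with 11 windows in all. These 4 motifs were searched on both strands, and 5 of the 9 genes held at least 1 match. The upstream 250 bases of 4 of them follow, since they hold the matches of the genes whose levels are described below; capitals mark the motif.
Ciart: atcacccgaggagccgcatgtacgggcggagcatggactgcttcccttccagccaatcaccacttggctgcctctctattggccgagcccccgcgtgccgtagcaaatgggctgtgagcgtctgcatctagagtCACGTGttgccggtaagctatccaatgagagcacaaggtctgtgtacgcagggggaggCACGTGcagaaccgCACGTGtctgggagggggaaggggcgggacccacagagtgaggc
Per3: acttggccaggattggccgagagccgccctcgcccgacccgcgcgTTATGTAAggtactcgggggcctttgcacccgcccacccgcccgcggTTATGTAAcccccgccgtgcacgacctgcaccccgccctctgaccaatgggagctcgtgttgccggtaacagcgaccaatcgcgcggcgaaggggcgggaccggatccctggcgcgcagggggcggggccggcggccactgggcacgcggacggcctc
Per1: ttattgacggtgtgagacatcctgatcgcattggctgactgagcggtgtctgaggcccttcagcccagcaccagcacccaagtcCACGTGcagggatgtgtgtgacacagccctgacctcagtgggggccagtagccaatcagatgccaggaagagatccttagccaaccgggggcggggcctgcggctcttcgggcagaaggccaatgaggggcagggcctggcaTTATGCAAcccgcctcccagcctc
Cry1: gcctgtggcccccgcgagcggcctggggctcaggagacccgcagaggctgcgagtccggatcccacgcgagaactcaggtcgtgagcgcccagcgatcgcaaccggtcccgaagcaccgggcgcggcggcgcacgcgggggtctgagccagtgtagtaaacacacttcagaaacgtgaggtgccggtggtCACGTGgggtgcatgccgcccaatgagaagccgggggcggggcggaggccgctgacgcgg

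The Ciart sequence (chr3:95882229-95882478, minus strand) held 3 E-boxes, starting 116, 58 and 44 bases before the start. An E-box was present in 7.15% of all 32851 promoter windows of the mouse table, and 3 or more upstream E-boxes in 20 windows (0.0609%). The Cry1 sequence (chr10:85185055-85185304, minus strand) held 1 E-box, starting 60 bases before the start. The Per1 sequence (chr11:69098699-69098948, plus strand) came from the first of 2 annotated starts and held an E-box starting 166 bases and a D-box starting 24 bases before it. The Per3 sequence (chr4:151044666-151044915, minus strand) held 2 D-boxes, starting 205 and 158 bases before the start. A D-box was present in 3.38% of windows, and 2 or more upstream D-boxes in 42 windows (0.128%).

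For Arntl, 1 RRE lay 27 bases after the second of its annotated starts. The 30 bases around it (chr7:113207528-113207557, plus strand) are shown because the RRE is the element through which NR1D proteins act on Arntl.
Arntl: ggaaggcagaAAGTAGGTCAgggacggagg
An RRE was present in 0.219% of all windows. No CRE was found in the 11 windows of these genes. At a share of 1.79% of all windows, so few windows cannot show a lack of the motif. Sequence farther than 250 bases before the starts was not searched. These matches describe letters in the reference genome and were not tested as binding sites.

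**Figure D1:**
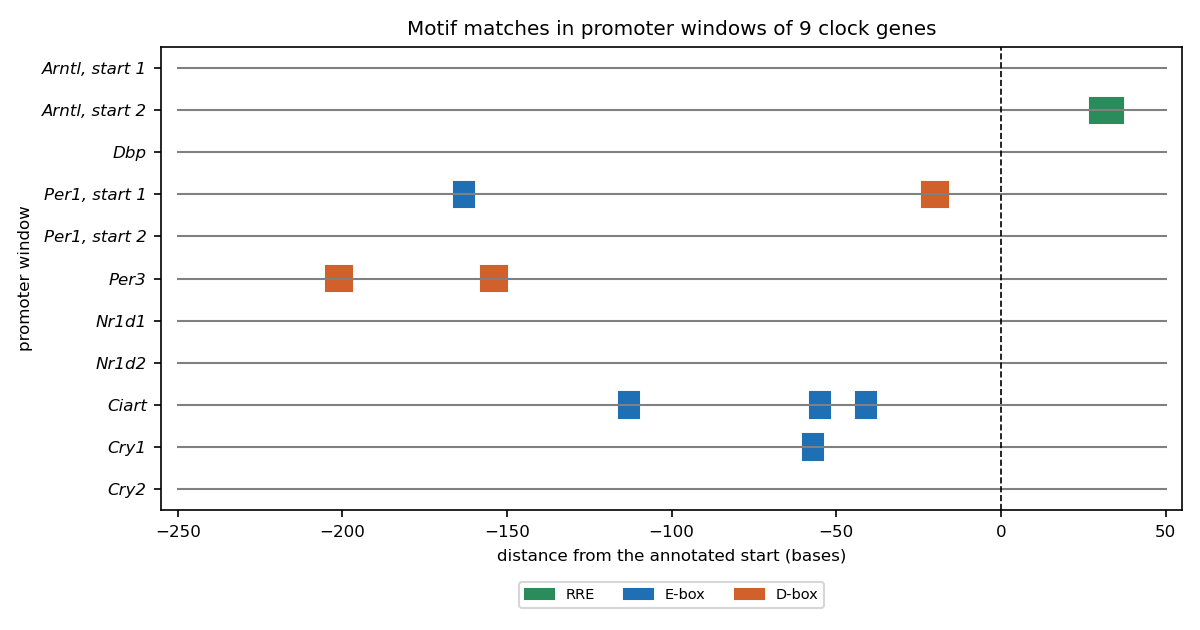
Motif matches in the 11 promoter windows of 9 clock genes, by distance in bases from the annotated start (dashed line); each coloured box is 1 match. Ciart holds 3 E-boxes, Per3 holds 2 D-boxes, Per1 has 1 of each before its first start, Cry1 has 1 E-box, and the RRE of Arntl lies after its second start.

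Levels between genes were compared per kilobase of annotated exon, as means over the 12 libraries. The nuclear receptor gene Nr1d2 was highest at 18.0 CPM per kilobase, followed by Cry2 at 15.5. Nr1d1 followed at 9.80, then Per1 at 6.74 and Dbp at 6.41 CPM per kilobase. Per3 measured 3.39, Cry1 3.00, Per2 2.41 and Ciart 1.80 CPM per kilobase, and Arntl was the lowest at 0.973. The ranges over libraries overlapped between every pair of neighbours in this order, for example 14.2 to 22.3 for Nr1d2 and 13.7 to 18.0 for Cry2, or 0.903 to 2.66 for Ciart and 0.493 to 1.36 for Arntl. The library kit does not mark strand, and in the GENCODE M21 annotation 18% of the exon bases of Dbp are shared with the opposite-strand gene Sphk2 and 8.55% of those of Nr1d1 with Thra, so reads there cannot be assigned to one gene.

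Arntl, the positive arm of the loop, fell into a high and a low set of libraries. In CPM scaled by TMM, the unit of all levels below, it measured 8.89 in control 1, 10.2 in control 3, 9.79 in control 5, 9.26 in iKO 1, 9.79 in iKO 3 and 8.84 in iKO 5. It measured 6.39 in control 2, 3.95 in control 4, 5.36 in control 6, 3.71 in iKO 2, 5.76 in iKO 4 and 5.9 in iKO 6. No library lay between 6.39 and 8.84 CPM, and each set held 3 iKO and 3 control animals. Replicate numbers 1, 3 and 5 of both groups made up the high set and numbers 2, 4 and 6 the low set. This split was seen in the values and was not tested, and the labels give no meaning to a shared number.

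Dbp, a transcription factor that the clock drives directly and that binds D-boxes, ran the other way. It measured 7.91 in control 1, 11 in control 3, 12.9 in control 5, 11.8 in iKO 1, 18.3 in iKO 3 and 16 in iKO 5. It measured 27.7 in control 2, 25.8 in control 4, 29.6 in control 6, 23.3 in iKO 2, 23.6 in iKO 4 and 22.3 in iKO 6. Every library with low Arntl therefore had more Dbp than every library with high Arntl, in iKO and control animals alike. Within the sets, Pearson's r of log2 levels was 0.18 over the 6 libraries with low Arntl (exact permutation p = 0.704). Over the 6 with high Arntl it was 0.19 (exact permutation p = 0.699). The sets were cut on Arntl itself, which narrows its range, and each holds 6 libraries. These r values therefore cannot show whether the opposition also holds within a set. A correlation pooled over both sets is not given for Arntl, because its values form separate clusters. Dbp did not overlap between the sets either, at 7.91 to 18.3 CPM and 22.3 to 29.6 CPM. Pooled r values with Dbp below therefore also span this split. The levels of every other member overlapped between the sets. Nr1d1, for example, measured 19.7 to 36.4 CPM with high Arntl and 23.9 to 46.9 CPM with low Arntl. Its r with Arntl was 0.67 within the low set (exact permutation p = 0.149) and 0.75 within the high set (exact permutation p = 0.0861).

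**Figure D2:**
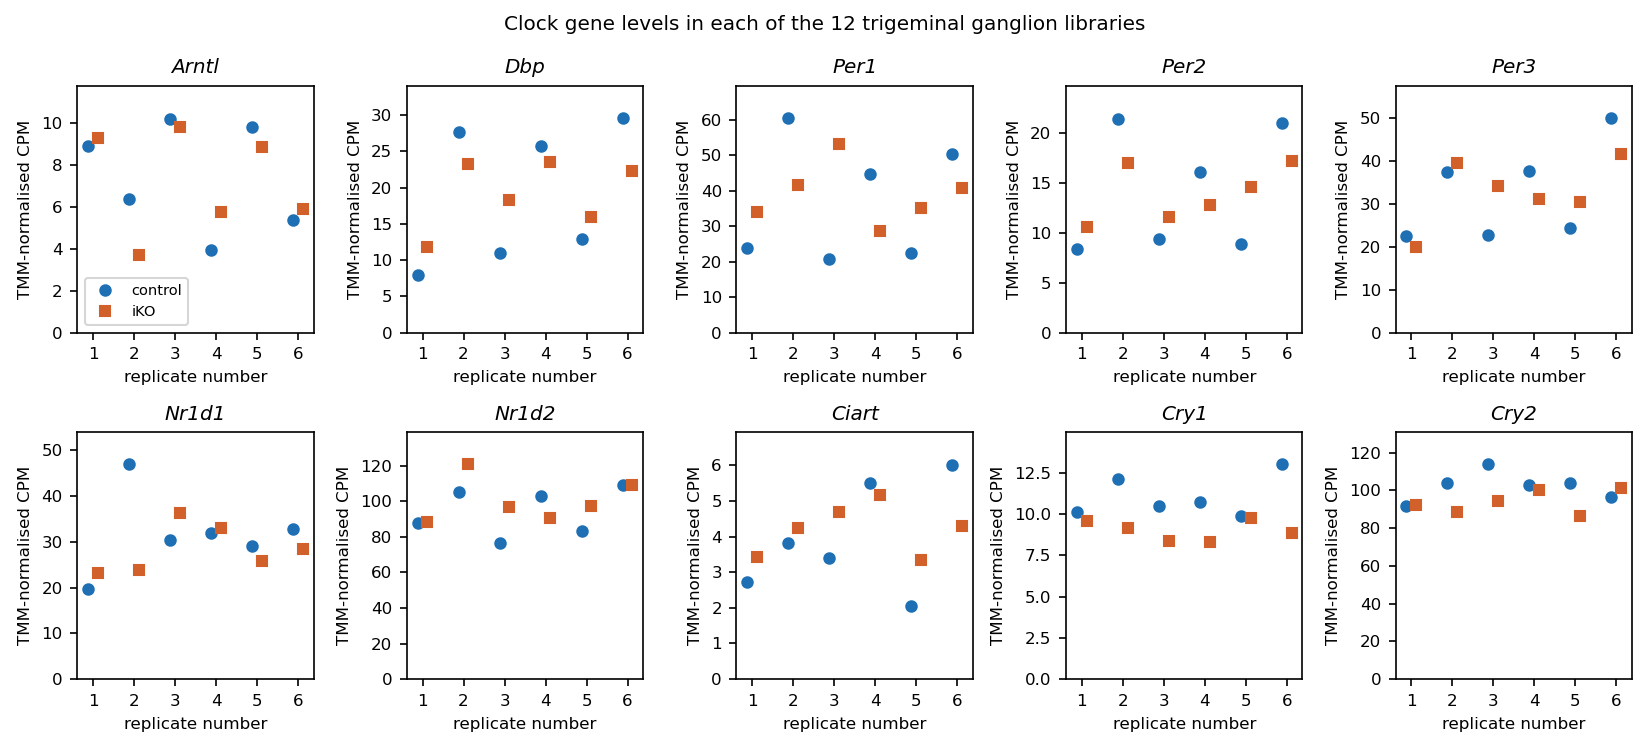
TMM-normalised CPM of each clock gene (panel) by replicate number, with control animals as circles and iKO animals as squares; each point is 1 library. Arntl is at 8.84 CPM or above for numbers 1, 3 and 5 and at 6.39 CPM or below for numbers 2, 4 and 6, Dbp shows the reverse, and only for Cry1 do all 6 iKO points lie below all 6 control points.

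The 3 Period genes encode proteins that repress the CLOCK and BMAL1 pair. The 5 highest libraries for Per2 and for Per3 were all among the 6 with the most Dbp. Per2 ran from 8.40 through a median of 12.7 to 21.4 CPM in controls and from 10.6 through 13.7 to 17.2 CPM in iKO. Per3 ran from 22.6 through 30.9 to 49.9 CPM in controls and from 20.0 through 32.6 to 41.5 CPM in iKO. Controls 1, 3 and 5 were the 3 lowest controls for both genes, and the groups overlapped throughout. Per1, a member that outside signals such as glucocorticoids also induce, ran from 20.7 through 34.3 to 60.4 CPM in controls. In iKO it ran from 28.6 through 37.9 to 53.1 CPM. Its highest library was control 2 and its next highest iKO 3, a library with high Arntl.

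Over the 12 libraries, Per2 had the most positive Pearson r with Dbp of all 16636 other genes tested (0.91, permutation p = 5e-05, adjusted 0.333; Spearman rho 0.87, p = 0.00044, adjusted 1). Per3 had rank 3 at r = 0.90 (permutation p = 9e-05, adjusted 0.333; rho 0.84, p = 0.00122). Per1 had rank 31 with r = 0.77 (permutation p = 0.00408, adjusted 0.999; rho 0.76). Without controls 1 and 3, the 2 libraries farthest from the median of Dbp, r was 0.86 for Per2, 0.90 for Per3 and 0.64 for Per1. Over replicates 1 to 4 alone, r was 0.91 for Per2 (exact permutation p = 0.00236), 0.90 for Per3 (0.00804) and 0.73 for Per1 (0.0449), and replicates 5 and 6 hold too few libraries for a value. With 12 libraries no gene passed the adjusted threshold: 0 of 16636 were called, 0% of the background, against 733 (4.41%) at an unadjusted p under 0.05, and Spearman's rho called 0 as well. The ranks are therefore descriptions. Because the values of Dbp differ between the sets described for Arntl, r was also taken within them: for Per2 it was 0.69 with low Arntl and 0.77 with high Arntl (exact permutation p = 0.126 and 0.0764). For Per3 it was 0.48 and 0.80 (exact permutation p = 0.339 and 0.05), and for Per1 0.69 and 0.75 (exact permutation p = 0.124 and 0.0861). With the replicate number removed as a block, r was 0.84 for Per2 and 0.32 for Per3. Removing the block with group and sex leaves few independent comparisons among 12 libraries, and r values with it were not tested.

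The other repressors of the loop were less uniform. Nr1d2, a receptor that represses Arntl, ran from 76.5 through 95.7 to 109 CPM in controls and from 88.5 through 97.1 to 121 CPM in iKO, with r = 0.77 to Dbp (permutation p = 0.00392, adjusted 0.999; rho 0.74). Ciart, a repressor of the CLOCK and BMAL1 pair, was the rarest transcript by CPM, from 2.04 through 3.60 to 6.02 CPM in controls and from 3.35 through 4.28 to 5.18 CPM in iKO, with 34 to 128 reads per library. Its r with Dbp was 0.78 (permutation p = 0.00284, adjusted 0.984; rho 0.79), and within the sets it was 0.37 with low Arntl (exact permutation p = 0.439) and 0.52 with high Arntl (exact permutation p = 0.276). Nr1d1, the closest relative of Nr1d2, ran from 19.7 through 31.3 to 46.9 CPM in controls and from 23.1 through 27.2 to 36.4 CPM in iKO, with control 2 highest. It had r = 0.65 to Dbp (permutation p = 0.0212, adjusted 0.999; rho 0.65) and 0.56 without controls 1 and 3, with 0.61 and 0.76 within the low-Arntl and high-Arntl sets (exact permutation p = 0.196 and 0.075). For Nr1d2, r with Dbp was -0.01 within the low-Arntl set (exact permutation p = 0.982) and 0.58 within the high-Arntl set (exact permutation p = 0.214), and with the replicate number removed as a block it was 0.16. The difference in these values was not tested.

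**Figure D3:**
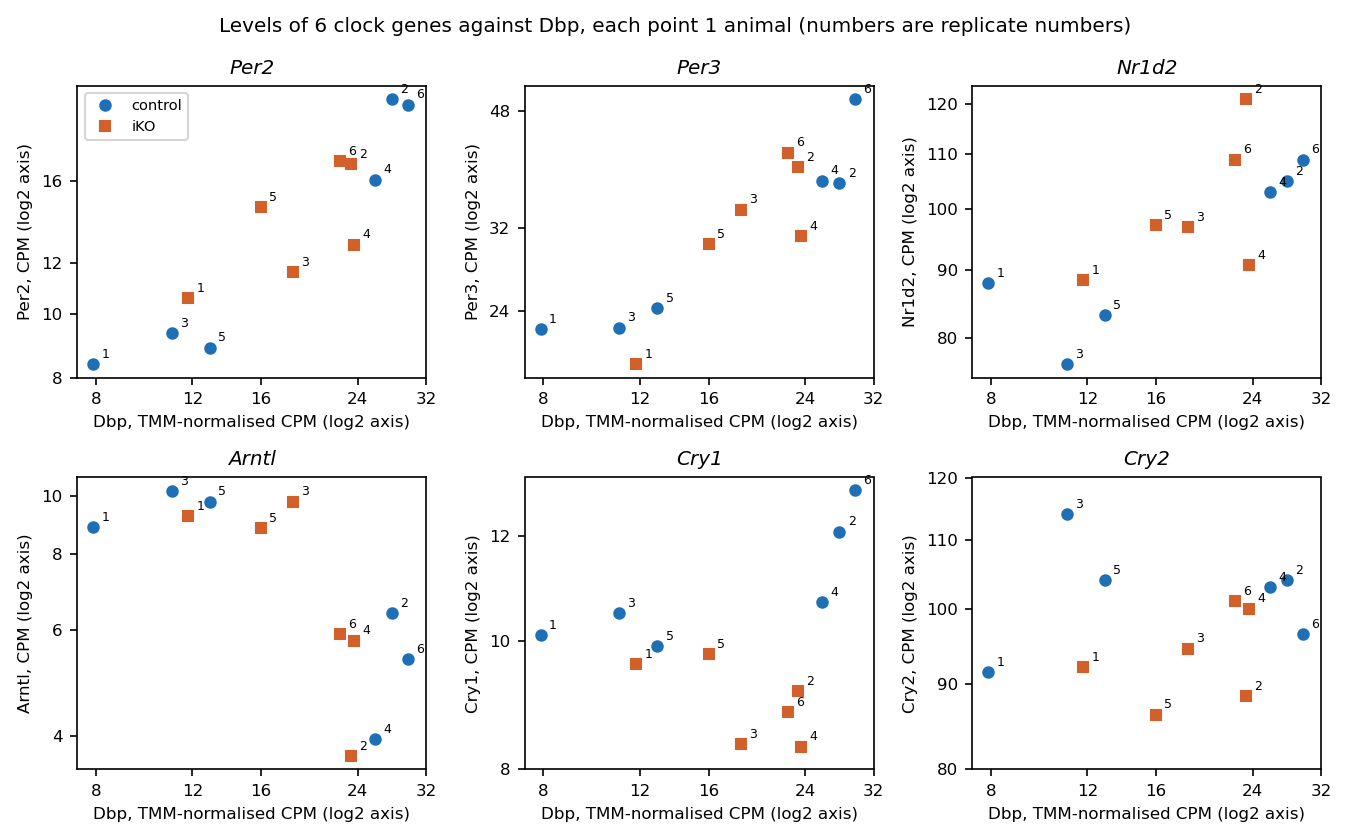
Levels of 6 clock genes against Dbp, both in TMM-normalised CPM on log2 axes; each point is 1 library, labelled with its replicate number. Per2 (r = 0.91) and Per3 (r = 0.90) are higher where Dbp is higher, Arntl falls into a high and a low set, and the pooled r is 0.19 for Cry1, whose control points lie above its iKO points, and 0.07 for Cry2.

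Leaving out Arntl, which ran against Dbp, the Cryptochrome genes had the lowest pooled r with Dbp among the members. Cry2 ran from 91.5 through 103.5 to 114 CPM in controls and from 86.3 through 93.4 to 101.5 CPM in iKO, with r = 0.07 to Dbp (permutation p = 0.829; rho 0.13). Cry1 had r = 0.19 to Dbp (permutation p = 0.553, rho 0.22), 0.48 on residuals from group and sex, and 0.95 with the replicate number also removed as a block. The value with the block rests on few independent comparisons and was not tested. Within the sets the r of Cry1 with Dbp took opposite signs, 0.96 over the 6 libraries with low Arntl (exact permutation p = 0.00556) and -0.73 over the 6 with high Arntl (exact permutation p = 0.101), and the difference was not tested. Each set holds 3 control and 3 iKO animals, and the Cry1 values of the 2 groups do not overlap. With low Arntl, Dbp too was higher in controls (25.8 to 29.6 CPM) than in iKO (22.3 to 23.6 CPM). With high Arntl it measured 7.91 to 12.9 CPM in controls and 11.8 to 18.3 CPM in iKO. The part of the group difference in these r values was not tested.

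The spread between animals of the same group and sex was wide for most of these genes. The biological coefficient of variation, which edgeR estimates as the spread left after counting error, was 37.2% for Dbp, 33.2% for Arntl and 30.8% for both Per1 and Per2. It was 29.2% for Ciart, 26.3% for Per3 and 21.4% for Nr1d1. It was 12.7% for Nr1d2, 12% for Cry1 and 7.65% for Cry2. The median was 27.7% over the 10 genes and 11.3% over all genes tested. Above the 75th percentile of all genes, which by construction holds 25% of them, were 7 of the 10, and 5 were above the 90th. From the lowest to the highest library, Dbp spanned 3.74-fold, Ciart 2.95-fold, Per1 2.92-fold, Arntl 2.76-fold, Per2 2.55-fold, Per3 2.50-fold and Nr1d1 2.38-fold. Nr1d2 spanned 1.58-fold, Cry1 1.56-fold and Cry2 1.32-fold, and 25.4% of all genes tested spanned more than 2-fold.

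**Figure D4:**
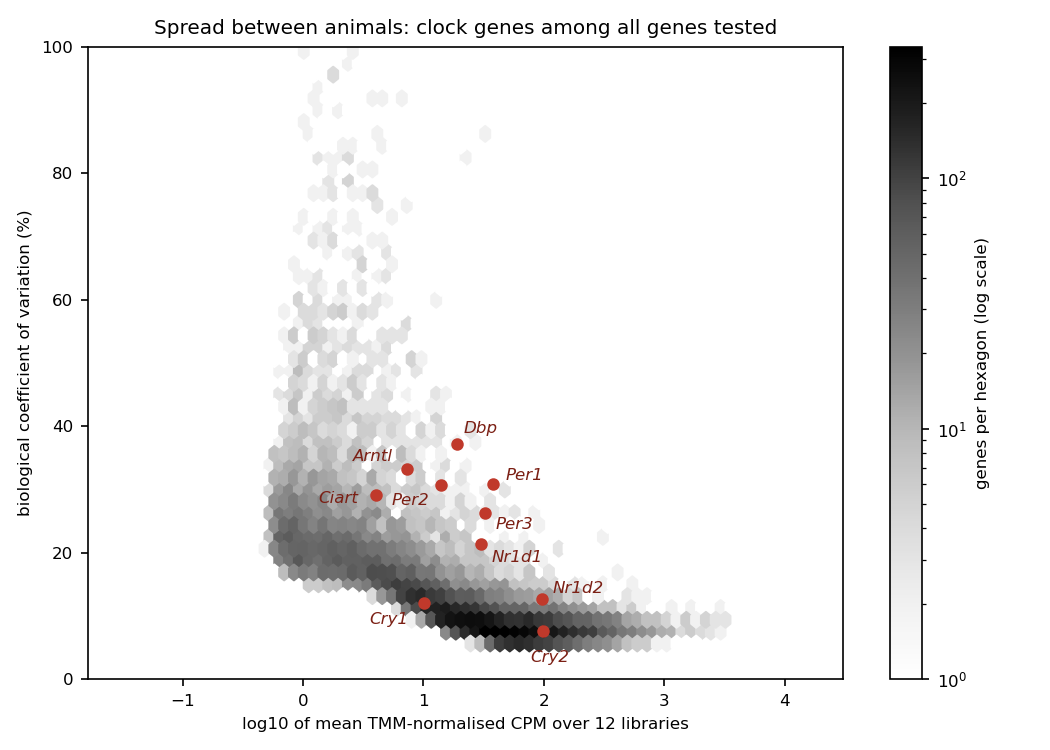
Biological coefficient of variation (%) against log10 of the mean CPM for all genes tested (grey hexagons, darker for more genes) and the 10 clock genes (red points). Dbp, Per1, Per3 and Nr1d1 lie above the main band of genes of their level, and Cry1 and Cry2 lie within it.

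No clock gene was called between iKO and control. With edgeR's quasi-likelihood test over all 12 libraries, 0 of the 10 passed an adjusted p of 0.05, against 63 of 16637 genes (0.379%, with 0.174% higher and 0.204% lower), and DESeq2 and limma-voom also called 0 of the 10. At an unadjusted p under 0.05 there was 1 of the 10, against 10.9% of all genes. Of the 10 log2 fold changes, 5 were above 0 and 5 below, and their median was -0.01 against 0.00 over all genes. For the wide members the confidence intervals were wide: Dbp had a log2 fold change of 0.02 ± 0.31 (SE; 95% interval -0.65 to 0.70) and Arntl of -0.05 ± 0.28 (-0.65 to 0.55). The intervals were narrower for Nr1d2, with 0.09 ± 0.10 (-0.13 to 0.31), and for Cry2, with -0.11 ± 0.06 (-0.23 to 0.01).

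Cry1, which encodes a repressor of the CLOCK and BMAL1 pair, was the member with an unadjusted p under 0.05. Its controls measured 10.1, 12.1, 10.5, 10.7, 9.91 and 13 CPM from replicate 1 to replicate 6. Its iKO libraries measured 9.60, 9.16, 8.35, 8.32, 9.77 and 8.83 CPM. The groups did not overlap, with the highest iKO library just below the lowest control. It was the sole one of the 10 with that property, which 1.2% of all genes tested had in either direction and 0.523% with iKO lower (0.679% with iKO higher). The means were 11.1 ± 1.21 CPM in the 6 controls and 9.01 ± 0.616 CPM in the 6 iKO (SD). The log2 fold change was -0.30 ± 0.09 (SE; 95% interval -0.49 to -0.11), with an unadjusted p of 0.00498 and an adjusted p of 0.194 in edgeR's quasi-likelihood test, so Cry1 did not pass the test. Under the alternatives run, its adjusted p ran from 0.138 to 0.444.

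Beside this gene, most genes of several marker lists shifted the same way between the groups, although the sums of these lists overlapped. All 14 fibroblast and meninges markers had fitted log2 fold changes below 0, 11 of them with an unadjusted p under 0.05, and edgeR called 3 lower, against 0.204% of all genes. Their sums were 1996 to 3663 CPM in controls and 1373 to 2569 CPM in iKO, with the highest sum in control 6, which also had the highest Cry1. Of 11 macrophage and lymphocyte markers, 11 had values below 0 (4 with an unadjusted p under 0.05, 0 called; sums of 208 to 305.2 CPM in controls and 151.5 to 261.8 CPM in iKO). Of 10 brain and central glia markers, 9 were below 0 (0 called; 562.6 to 2602 CPM and 511.9 to 1127 CPM). Of 11 skeletal muscle markers, 11 were above 0 (0 called, sums of 75.3 to 277.3 CPM in controls and 74.5 to 1094 CPM in iKO). The highest muscle sums in iKO were those of iKO 5 and of iKO 6 (335.6 CPM). Over replicates 1 to 4, 6 of these markers were above 0 and 5 below. Of 12 Schwann cell markers, 9 were above 0 and 1 was called higher, against 0.174% of all genes (sums of 7987 to 13590 CPM and 9620 to 12080 CPM). The part of these markers in the Cry1 values was not tested. Without control 6 and iKO 5 and 6, the libraries with the highest sums of brain or muscle markers, the log2 fold change of Cry1 was -0.31. Leaving out these libraries was not planned beforehand and is no test of the part of the markers.

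The 2 replicate sets were also compared, as contrasts in 1 edgeR fit. Replicates 1 to 4 compare genotypes in animals that all received tamoxifen, and replicates 5 and 6 compare tamoxifen with corn oil in males of 1 genotype. Prdm12 was at 16.7 and 16.9 CPM in iKO 5 and 6 and at 133 and 56.8 CPM in controls 5 and 6. In replicates 5 and 6, tamoxifen itself and the loss of Prdm12 therefore cannot be told apart. In replicates 1 to 4, 0 of the 10 genes were called, against 19 of all genes (0.114%; 0.0541% higher, 0.0601% lower), with 1 of the 10 and 7.93% of all genes at an unadjusted p under 0.05. In replicates 5 and 6, 0 of the 10 were called, against 1 of all genes (0.00601%), with 0 of the 10 and 7.87% of all genes at an unadjusted p under 0.05. DESeq2 called 0 of the 10 in both. The log2 fold change of Cry1 was -0.32 ± 0.12 (adjusted p = 0.492) in the first and -0.30 ± 0.16 (adjusted p = 0.672) in the second. Without control 6 the second value was -0.09, and without control 5 it was -0.49. The difference between the sets was 0.02, with a 95% interval from -0.41 to 0.44. For the other members the difference ran from -0.38 for Ciart to 0.21 for Per2. By edgeR 0 of the 10, and 0 (0%) of all genes, were called for it, with 0 of the 10 and 568 of all genes (3.41%) at an unadjusted p under 0.05. DESeq2 called 5 genes for this difference and 0 of the 10.

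**Figure D5:**
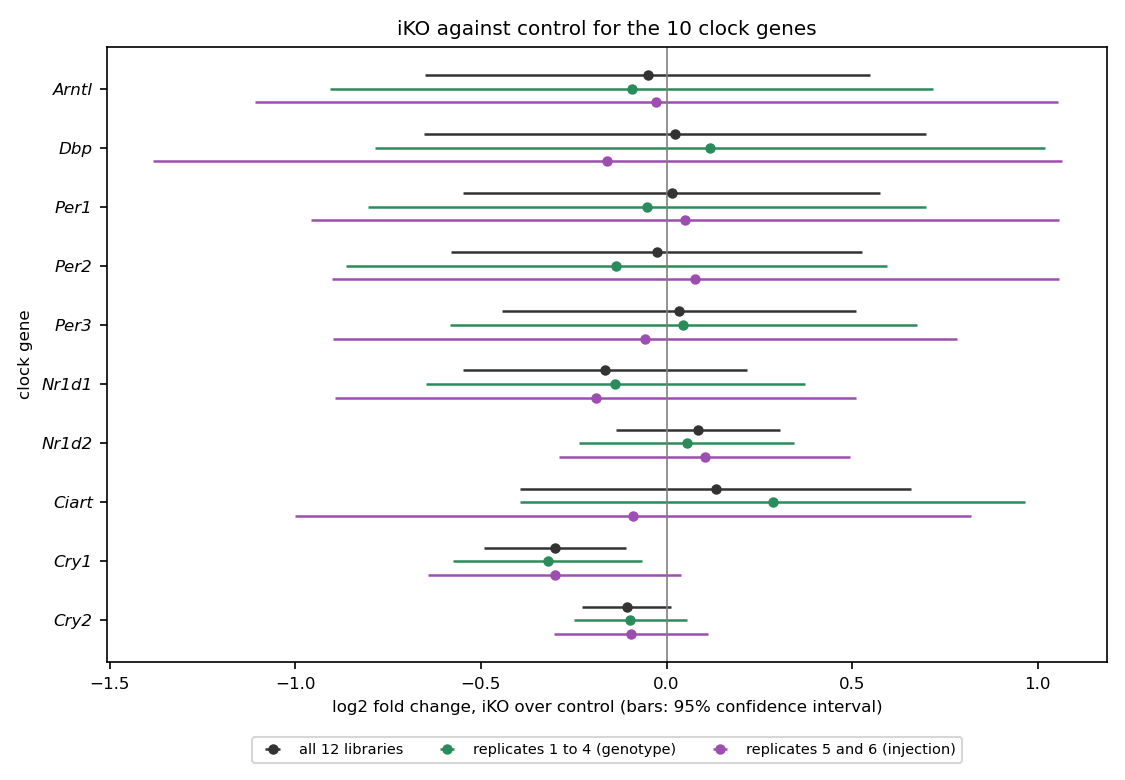
Log2 fold change of iKO over control for the 10 clock genes (points) with 95% confidence intervals (bars), over all 12 libraries (black), replicates 1 to 4 (green) and replicates 5 and 6 (purple). The interval of Cry1 lies below 0 over all 12 libraries and over replicates 1 to 4, although no gene passed the adjusted threshold, and the intervals of Arntl, Dbp, Per1 and Per2 are the widest.

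Between the sexes, edgeR called 0 of the 10 genes in males against females, against 18 of all genes (0.108%; 0.0301% higher in males, 0.0781% lower). At an unadjusted p under 0.05 there were 0 of the 10 and 10.2% of all genes, and DESeq2 called 0 of the 10. The log2 differences ran from -0.30 for Per1 (95% interval -0.86 to 0.27) to 0.20 for Ciart (-0.34 to 0.73).

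Other parts of the pathway were read from lists. Of the 5 activators and ROR receptors, 0 were called between iKO and control. Clock, the partner of Arntl, showed a log2 fold change of 0.05. For Npas2, which can stand in for Clock, it was -0.38 (adjusted p = 0.641, edgeR). Of 4 other repressors, Bhlhe40, Bhlhe41, Nfil3 and Timeless, 0 were called, and all 4 had values below 0, from -0.04 for Timeless to -0.19 for Nfil3. Of the 2 relatives of Dbp, Tef and Hlf, 0 were called. Hlf was at 16.7 to 30.7 CPM in controls and 10.7 to 19.4 CPM in iKO, with overlap, and on the log2 scale iKO differed by -0.60 ± 0.17 (SE; edgeR adjusted p = 0.159). Control 2 and control 6 were its highest libraries, and the marker sums given for Cry1 apply beside it too, their part likewise not tested. Of 8 kinases and ubiquitin ligases that act on PER and CRY proteins, and of 14 tested output genes of the clock, 0 were called. All these lists had at most 1 gene with an unadjusted p under 0.05.

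The same genes were compared with Dbp between animals. Tef, which binds the same D-box as Dbp, had rank 5 among all genes in r with Dbp (0.88, permutation p = 0.00025, adjusted 0.416, rho 0.88). Within the low-Arntl and high-Arntl sets its r was 0.69 and 0.76 (exact permutation p = 0.126 and 0.0764). Tef held 122 to 168 CPM in all libraries. The repressor Bhlhe41 had r = 0.75 (permutation p = 0.00542, adjusted 0.999). Below 0 were the CLOCK-type activators: Npas2 had r = -0.67 (permutation p = 0.0176, adjusted 0.999; rho -0.76) and Clock -0.64 (permutation p = 0.0242, adjusted 0.999; rho -0.63). Nfil3, which competes with DBP for D-boxes, had r = -0.22 (permutation p = 0.502), and Hlf 0.33 (permutation p = 0.287). For Bhlhe41, Npas2 and Clock, r without controls 1 and 3 was 0.72, -0.56 and -0.60.

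Among named genes of at least 1 CPM, the 5 most like Dbp were Per2, Per3, Nxph1, Tef and Zfyve21, with r from 0.87 to 0.91. Among the most unlike it were Rasa2, Fabp7, Ap3m2 and Hdac9, with r from -0.89 to -0.83, and none of these genes passed after adjustment. Fabp7, a fatty acid binding protein of satellite glia, had r = -0.87 (permutation p = 0.00036, adjusted 0.499, rho -0.80). Within the low-Arntl and high-Arntl sets its r with Dbp was -0.68 and -0.51 (exact permutation p = 0.153 and 0.3). Fabp7 measured 307, 266 and 295 CPM in controls 1, 3 and 5 and 274, 278 and 274 CPM in iKO 1, 3 and 5. It measured 163, 147 and 121 CPM in controls 2, 4 and 6 and 163, 204 and 162 CPM in iKO 2, 4 and 6. Its high and low libraries were thus those of Arntl. The satellite glia list as a whole summed to 4388 to 5727 CPM in replicates 1, 3 and 5 and to 4295 to 7412 CPM in replicates 2, 4 and 6, so its sums overlapped between those libraries.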

How the data were processed

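Polyadenylated RNA of 12 ganglia was sequenced from TruSeq libraries that do not mark strand, per the labels' protocols. The tools bcl2fastq 2.20.0.422, STAR 2.7.8a, featureCounts 2.0.1 and the build GRCm39 are named, with no order, per the submitters' processing notes. The deposited values are raw read counts per gene, 1 file per library. Neither the annotation release nor the counting options are stated there. Symbols and exon lengths came from GENCODE M21 tables of an older build, GRCm38, and 52083 of 55416 identifiers had a symbol. Identifiers without one held 0.274% of counts. Without molecular identifiers, limits from counts of 0 cover counting error alone.

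Genes were kept with filterByExpr by group, scaled with TMM and tested with edgeR 4.0.16 (glmQLFit, sex as covariate), with Benjamini-Hochberg adjustment over 16637 genes and a threshold of 0.05. The replicate sets were contrasts in 1 fit over all libraries. Correlations used log2(CPM + 0.5), two-sided permutation tests with 100000 resamples (exact for 8 or fewer libraries) and adjustment over 16636 genes, for 3 reference genes (Arntl, Dbp, Per1). Per1 as a reference, and the sets of libraries below and above 7 CPM of Arntl, were chosen after seeing the data. Genes most like Arntl are not named because its values form separate clusters. Named genes were the 10 members, Prdm12, the smallest p-values of each list and the 5 most and least like Dbp, and Fabp7, whose library values were chosen after they were seen. A gene that this rule takes is not reported here. Members and lists were chosen with earlier results of these data known. Nothing in the labels says that animals were independent litters, so p-values measure the spread between these samples. Both kinds of test were tried on simulated data. Alternatives were DESeq2 1.42.0, limma-voom (limma 3.58.1), other scalings, filters and covariates, a replicate block, and leaving out libraries.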

Additional observations from a re-analysis of the deposited data

How the results depend on the processing

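Under every alternative run, 0 of the 10 clock genes were called in each comparison and in the correlations with Arntl and Dbp, and 6 or 7 of them stayed above the 75th percentile of spread without any 1 library. The total count of genes called between iKO and control (63) was 138 with no filter on low counts, 332 with DESeq2, 15 with the replicate block, 28 in tamoxifen-injected animals only, 21 without control 6 and iKO 5 and 6 together, and 23 (without control 2) to 88 (without control 6) when 1 library was left out. For replicates 1 to 4 (19) it was 621 with no filter, 137 with DESeq2, 12 fitted alone, 8 fitted alone with the block, and 2 (without iKO 4) to 18 when 1 library was left out. For replicates 5 and 6 (1) it was 2 with DESeq2's scaling in edgeR, 1014 with no filter, 69 with DESeq2 and 1 to 26 (without iKO 6) when 1 library was left out. For the difference (0) it was 578 with no filter, 5 with DESeq2 and 0 to 15 (without iKO 6) when 1 library was left out, and for male against female (18) 33, 50 and 11 to 15.

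Fold changes near 0 changed sign. Per1 was -0.0164 with the replicate set as covariate and -0.0789 with the block. Per2 was 0.0287 with limma-voom, 0.0057 with the block and 0.0036 in tamoxifen-injected animals only. Per3 was -0.0651 and Dbp -0.0027 with the block, Dbp was -0.0021 with no covariate, and Arntl was 0.0313 with limma-voom. Without 1 library, log2 fold changes ran from -0.15 to 0.24 for Per1, -0.17 to 0.24 for Per2, -0.0662 to 0.17 for Per3, -0.17 to 0.0646 for Arntl, -0.17 to 0.34 for Dbp and -0.31 to 0.0686 for Nr1d1. The upper ends for Per1, Per2, Dbp and Nr1d1 came without control 2. The Cry1 difference between the sets ran from -0.17 to 0.22. The r with Dbp ran from -0.0624 to 0.31 for Cry1 and from -0.11 to 0.38 for Cry2. The cause of these changes was not tested.

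Over all genes, deviations of same-numbered samples correlated at r from -0.40 to 0.33, over 0.1 for 4 of the 6 numbers. No control sample correlated best with the iKO sample of its own number, so the block is an alternative only. Arntl and Dbp did split by number in both groups, as described above. With replicate number removed as a block, r with Dbp was -0.16 for Cry2, 0.16 for Nr1d2, 0.32 for Per3, 0.84 for Per2 and 0.95 for Cry1. These values rest on few independent comparisons and were not tested.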

Other observations

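Per1 was also used as a reference gene, a choice made after its values were seen. Of 16636 genes, 0 (0%) were called with it, against 637 (3.83%) at an unadjusted p under 0.05. The gene with the most positive r was Sgk1, a kinase gene that glucocorticoids induce (r = 0.92, permutation p = 1e-05, the smallest that the resamples can give, adjusted 0.166; rho 0.89). Sgk1 measured 45.4 to 122 CPM in controls and 58.3 to 99.0 CPM in iKO, and control 2 was highest, as for Per1. Nfkbia and Klf9, from the same list of glucocorticoid-responsive genes, had ranks 4 and 5 (r = 0.88 each, permutation p = 7e-05 and 0.0001, adjusted 0.388 and 0.416). Without controls 3 and 5, the libraries farthest from the median of Per1, r was 0.85 for Sgk1, 0.80 for Nfkbia and 0.86 for Klf9. Control 2, the highest library for Per1 and for each of these genes, was kept there. The r values without control 2 were not computed. Of the 13 genes of that list, 12 had r above 0 with Per1 and 10 an unadjusted permutation p under 0.05, and Dusp1 had r = -0.34 (permutation p = 0.275). These genes summed to 1219 CPM in control 2, 605.5 to 889.2 CPM in the other controls and 714.8 to 931.2 CPM in iKO. None of the 13 was called between iKO and control by edgeR, with 1 at an unadjusted p under 0.05.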
